A study of Sus scrofa with 10 samples.

Results

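The genes described here are the estrogen and corticosteroid receptors: ESR1, ESR2, NR3C1, NR3C2 and GPER1, measured by RNA sequencing of ovaries from 10 gilts (Sus scrofa). The rule took each by its symbol, as the protein-coding locus that carries it (the locus of largest summed count where several did), and used no difference between the groups. They are 5 of 19972 protein-coding loci and of 43499 loci in all. The control group (5 gilts, untreated per the labels and given saline per the methods) and the rpFSH treatment group (5 gilts, 1000 IU of recombinant porcine follicle-stimulating hormone, written fpFSH in the labels) had all been fed altrenogest, an oral progestogen (20 mg daily, 18 days, starting when they were 210 days old), and then went 2 days without it. The gilts were 234 days old at sampling, surface follicles were taken off the ovaries before RNA extraction, and each library came from 1 gilt, so the values below describe what remained of the ovary. The comparison asks whether rpFSH treatment changed the transcript level of each receptor.

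Estrogen and corticosteroid receptors are the proteins through which cells read steroid hormones. ESR1 and ESR2 (estrogen receptors alpha and beta), NR3C1 (the glucocorticoid receptor) and NR3C2 (the mineralocorticoid receptor) are nuclear receptors, held by chaperones until a hormone binds and then acting on target genes with coactivators or corepressors, whereas GPER1 is a G protein-coupled receptor of the membrane system that responds to estrogen. In the ovary ESR2 is best known from granulosa cells of follicles and ESR1 from theca, stroma and surface epithelium, and the enzymes HSD11B1 and HSD11B2 form and remove the active glucocorticoid within the cell.

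Each library held between 64873797 and 75114003 counts. Some libraries stood apart in cell type markers. The summed FPKM (fragments per kilobase, scaled to library size) of luteal markers was 2724 in control replicate 2 and 1422 in rpFSH replicate 1, against 17.5 to 349 in the other gilts. Oviduct-type epithelium markers summed to 123 FPKM in control replicate 5 and 67.0 in control replicate 2, against 6.34 to 17.9 elsewhere. In the edgeR test given below, 7 of their 9 measured genes were lower in the rpFSH group at an unadjusted P under 0.05, beside 3.21% of all tested protein-coding loci. At an adjusted p under 0.05 there were 0. The lists were chosen with earlier results of these data known, and cilia genes had already set control replicates 2 and 5 apart. This list holds such genes (FOXJ1, DNAH5 and DNAI2), so its count is no independent support for a difference. Smooth muscle markers summed to 2194 FPKM in control replicate 5, against 66.2 to 500 elsewhere. No marker was at 0 in all gilts, although FOXL2, HSD17B1, HSD3B1, KRT19, MSLN and PAX8 matched no coding locus. In bulk tissue, fewer cells of a type and less RNA per cell cannot be told apart, and the part that these cells play in the receptor values was not tested.

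No receptor passed the test between the groups. With edgeR's quasi-likelihood test and Benjamini-Hochberg adjustment over 15170 protein-coding loci, 0 of 5 receptors had an adjusted p under 0.05, beside a background of 0% of all tested loci. At an unadjusted P under 0.05 the count was also 0 of 5 with edgeR, where the background was 4.73% (1.52% higher and 3.21% lower in the rpFSH group), and 0 of 5 also had a ratio of mean FPKM beyond 1 or −1 on the log2 scale, where it was 3.12%. DESeq2 gave 0 of 5 at an adjusted p under 0.05 (background 0.567%) and at an unadjusted P under 0.05 (6.04%), as did limma (0% and 3.03%). For all 5 receptors the values of the 2 groups overlapped, as they did for all but 0.626% of tested loci.

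ESR1 stood out by a single control gilt. The transcript level was 2.65, 2.53, 2.67, 2.52 and 6.15 FPKM in control replicates 1 to 5, and 1.5, 3.58, 3.42, 2.32 and 2.28 FPKM in rpFSH replicates 1 to 5. Control replicates 1 to 4 lay within a narrow band and control replicate 5 far above it, while the rpFSH gilts lay on both sides of that band. The group means were 3.30 ± 1.59 and 2.62 ± 0.87 FPKM (SD, n = 5 each), and the log2 fold change (rpFSH minus control) was −0.23 ± 0.32 (SE), with a 95% interval from −0.95 to 0.48, or 0.518 to 1.39 times the control level (edgeR adjusted p = 1.00). Without control replicate 5, the gilt with the highest smooth muscle and oviduct-type marker sums, the log2 fold change turned to 0.08.

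The locus that carries ESR1 also carries its neighbour. It spans positions 14217036 to 14752047 of chromosome 1 on the minus strand (build Sscrofa11.1), a span of 535 kb with 36 assembled transcripts of which 9 were annotated, and bears the names ESR1 and CCDC170. RefSeq places ESR1 at 14217032 to 14604906 and CCDC170 at 14649453 to 14751051 on the same assembly. Its counts, 19994 to 83779 per gilt, therefore cannot be divided between the genes, and FPKM here divides by an implied length of 182 kb, so the level cannot be set against that of a mature ESR1 transcript.

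A second view of the ESR1 region came from 9 unannotated loci that overlap ESR1 and not CCDC170, 8 of them wholly within it on the opposite strand and 1 on its own strand that runs past its end. Summed, they gave 140, 94.0, 150, 191 and 277 CPM (counts scaled to library size) in control replicates 1 to 5, and 108, 197, 189, 133 and 176 CPM in rpFSH replicates 1 to 5. Control replicate 5 was again the highest gilt, but the lowest was control replicate 2, whose level at the whole locus had been close to those of control replicates 1, 3 and 4. The means were 170 ± 68.7 and 161 ± 38.4 CPM (SD, n = 5 each), and the log2 fold change was −0.01 ± 0.28 (SE; edgeR adjusted p = 1.00), ranging from −0.16 to 0.21 when each gilt was left out. This measure was chosen after the data were seen. Whether the counting used strand is not given in the sources used here, so reads of ESR1 and of the loci opposite it may not be separable.

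**Figure D1:**
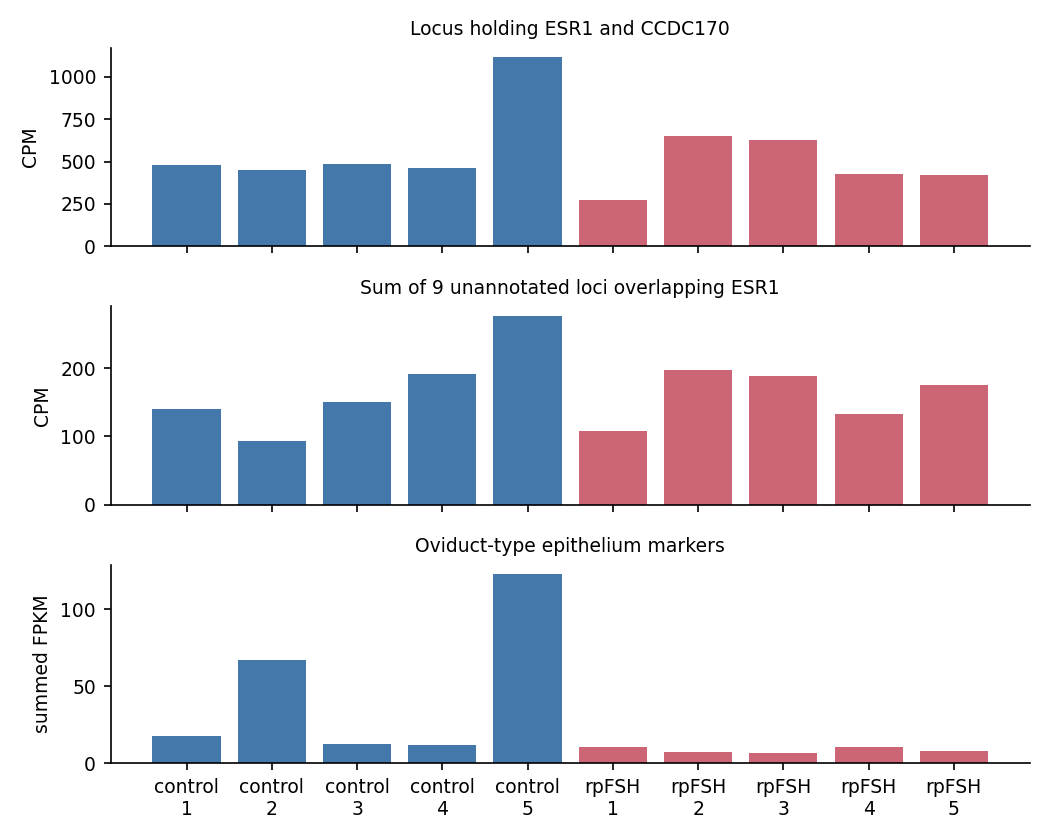
Bars give, for each of the 10 gilts, the CPM of the locus holding ESR1 and CCDC170 (top), the summed CPM of 9 unannotated loci overlapping ESR1 (middle) and the summed FPKM of oviduct-type epithelium markers (bottom), with controls in blue and rpFSH gilts in red. Control replicate 5 is the tallest bar in all 3 panels (1115 CPM, 277 CPM and 123 FPKM), while control replicate 2 has the lowest middle bar (94.0 CPM).

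ESR2 had a larger SD among the controls than among the rpFSH gilts, a difference that was not tested. Its locus, on chromosome 1 at 193824791 to 193904638 on the plus strand, held 1 transcript and only 83 to 334 counts per gilt, which gives a counting error of 5.47 to 11.0%. The level was 1.82, 0.437, 1.58, 1.48 and 0.652 FPKM in control replicates 1 to 5, and 1.15, 1.27, 1.3, 1.1 and 1.84 FPKM in rpFSH replicates 1 to 5. Control replicates 2 and 5 were the lowest of the 10 gilts, and the other 3 controls lay above 4 of the 5 rpFSH gilts. The means were 1.19 ± 0.61 and 1.33 ± 0.296 FPKM (SD, n = 5 each), with a log2 fold change of 0.22 ± 0.40 (SE), a 95% interval from −0.66 to 1.10 and an edgeR adjusted p of 1.00. Without control replicates 2 and 5 it was −0.21, so the direction came from these gilts.

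NR3C1 had the highest mean FPKM of the receptors, though the ESR1 value cannot be compared with it (above), and the smallest relative SD in the control group. The locus lies on chromosome 2 at 144822078 to 144931473 on the minus strand, with 11 transcripts and 2965 to 6809 counts per gilt. Control replicates 1 to 5 had 4.46, 3.53, 4.29, 4.76 and 4.84 FPKM, whereas rpFSH replicates 1 to 5 had 2.24, 4.07, 5.77, 5.40 and 3.17 FPKM. The rpFSH gilts thus held both of the lowest and both of the highest values. The means were 4.38 ± 0.523 and 4.13 ± 1.48 FPKM (SD, n = 5 each), and the log2 fold change was −0.01 ± 0.25 (SE), with a 95% interval from −0.55 to 0.54 (edgeR adjusted p = 1.00). The difference in spread was not tested.

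NR3C2 was highest in a control gilt and lowest in an rpFSH gilt. Its locus is on chromosome 8 at 80303220 to 80670152 on the plus strand, with 5 transcripts and 2161 to 6843 counts per gilt. The level was 3.50, 6.32, 3.54, 4.15 and 2.56 FPKM in control replicates 1 to 5, and 1.98, 3.05, 4.47, 4.18 and 2.77 FPKM in rpFSH replicates 1 to 5. Control replicate 2 (6.32 FPKM) and rpFSH replicate 1 (1.98 FPKM) were the extremes of the 10 gilts, and they were also the pair with the highest luteal marker sums. The means were 4.01 ± 1.41 and 3.29 ± 1.03 FPKM (SD, n = 5 each), and the log2 fold change was −0.21 ± 0.28 (SE), with a 95% interval from −0.84 to 0.42 (edgeR adjusted p = 1.00). Leaving out control replicate 2 brought it to 0.02.

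GPER1 was the lowest receptor and the one with the largest fitted difference. It is a short locus on chromosome 3, at 712160 to 715980 on the plus strand, with 66 to 159 counts per gilt and a counting error of 7.93 to 12.3%. The level was 0.706, 0.580, 0.443, 0.569 and 0.805 FPKM in control replicates 1 to 5, and 0.700, 0.694, 1.06, 0.779 and 0.591 FPKM in rpFSH replicates 1 to 5. All 5 rpFSH gilts lay above the control median of 0.580 FPKM, but 2 controls lay above 3 of them. The means were 0.621 ± 0.139 and 0.766 ± 0.179 FPKM (SD, n = 5 each). The log2 fold change was 0.38 ± 0.27 (SE), with a 95% interval from −0.21 to 0.98, or 0.862 to 1.97 times the control level (edgeR adjusted p = 1.00).

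**Figure D2:**
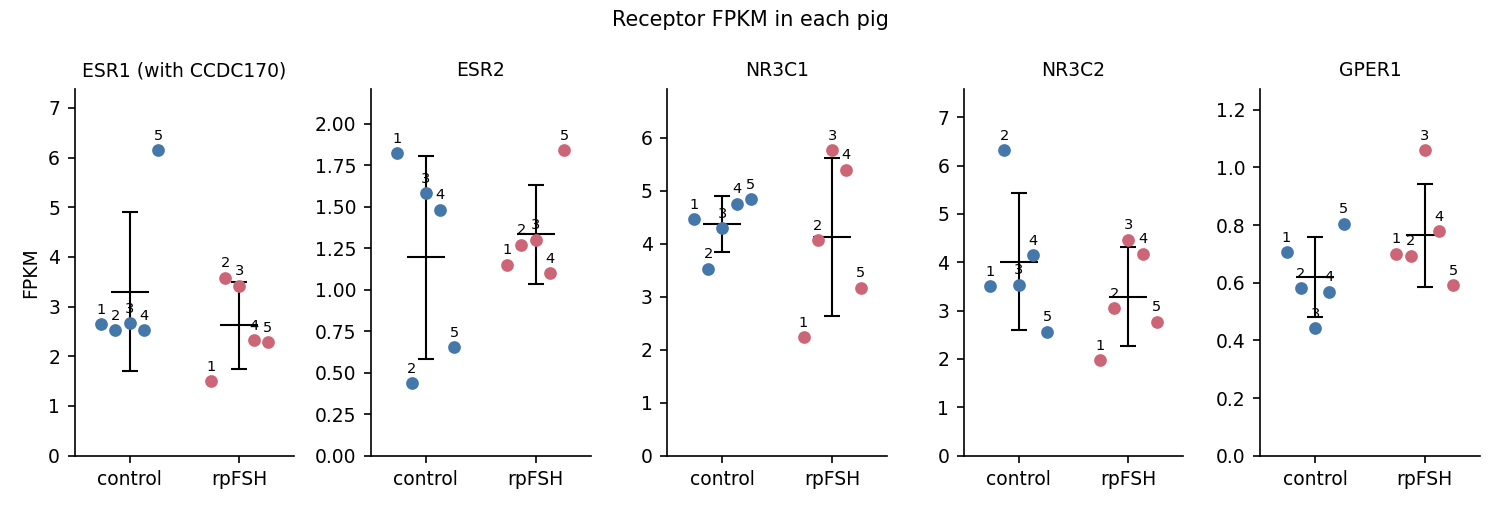
Points give the FPKM of each receptor in each gilt, numbered by replicate, for the control group (blue) and the rpFSH treatment group (red), each panel with its own FPKM axis from 0, and black bars give the mean ± SD (n = 5). Control replicate 5 lies alone at 6.15 FPKM for ESR1, control replicate 2 lies lowest for ESR2 (0.437 FPKM) and highest for NR3C2 (6.32 FPKM), and the groups overlap in every panel.

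**Figure D3:**
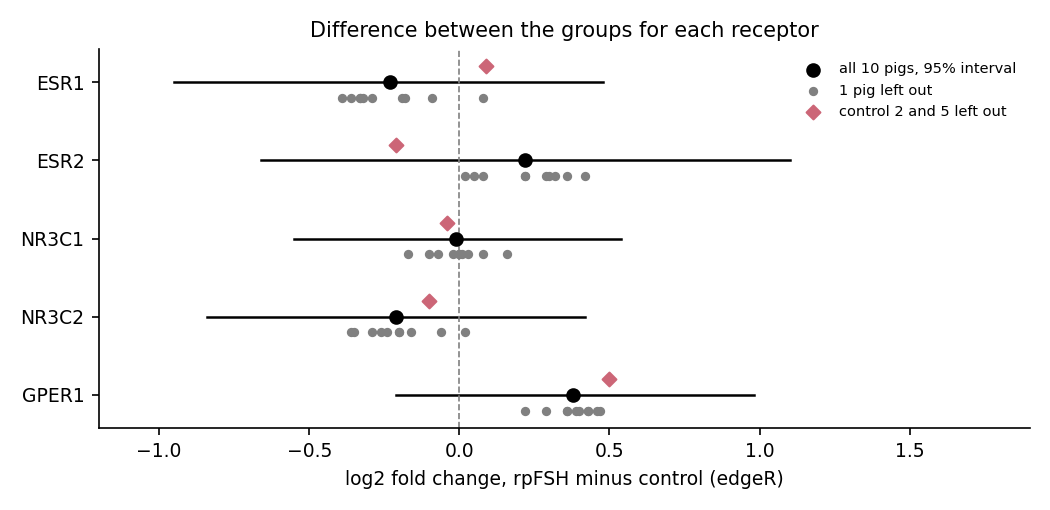
For each receptor the black point and line give the log2 fold change, rpFSH minus control, and its 95% interval from edgeR, grey points the same with 1 gilt left out, and red diamonds the same without control replicates 2 and 5. Every interval includes 0, and the diamonds of ESR1 (0.09) and ESR2 (−0.21) lie on the other side of 0 from their black points.

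Ordered by mean FPKM, the receptors ran from NR3C1 (4.25 FPKM) through NR3C2 (3.65), ESR1 (2.96, with the limit on its length given above) and ESR2 (1.26) to GPER1 (0.693). On this scale NR3C1 exceeded NR3C2 in 9 of 10 gilts, NR3C2 exceeded ESR1 in 8, ESR1 exceeded ESR2 in 10 and ESR2 exceeded GPER1 in 8. The place of ESR1 depends on the implied length, since in CPM, which is not divided by length, its merged locus exceeded all other receptors in 10 of 10 gilts. Among the tested protein-coding loci the mean FPKM of NR3C1 stood at the 67.9th percentile and that of GPER1 at the 20.5th. Within groups the SD on the log2 CPM scale ran from 0.302 for GPER1 to 0.580 for ESR2, beside a median of 0.421 over all tested loci.

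The balance between receptors did not differ detectably between the groups. In all, 4 ratios were tested on log2 ((FPKM + 0.1) / (FPKM + 0.1)) with a two-sided exact permutation test over all assignments of the gilts, whose smallest p is 0.00794. The log2 ratio of ESR1 to ESR2 was 0.52, 2.29, 0.72, 0.73 and 3.06 in control replicates 1 to 5, and 0.36, 1.43, 1.33, 1.01 and 0.29 in rpFSH replicates 1 to 5. Control replicates 5 and 2 had the highest ratios, while the other 3 controls lay among the rpFSH gilts. Ratios with ESR1 use the locus merged with CCDC170. In control replicate 2 that locus (2.53 FPKM) was close to control replicates 1, 3 and 4, and ESR2 (0.437 FPKM) was the lowest of all gilts. The mean was 1.46 ± 1.14 among controls and 0.88 ± 0.53 among rpFSH gilts, a difference of −0.58 (exact p = 0.373, adjusted p = 0.944).

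The ratio of NR3C1 to NR3C2 was held more narrowly in the rpFSH gilts, where it lay between 0.17 and 0.40 on the log2 scale. In control replicates 1 to 5 it was 0.34, −0.82, 0.27, 0.19 and 0.89, so that controls 2 and 5 departed in opposite directions and the other 3 matched the rpFSH range. The difference of the means was 0.12 (exact p = 0.714, adjusted p = 0.944), and the narrower spread was not tested. For ESR1 to NR3C1 the difference was −0.14 (exact p = 0.643, adjusted p = 0.944).

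Over the 10 gilts no pair of receptors varied together past the threshold: 0 of 10 pairs had an adjusted p under 0.05 for Pearson's r or Spearman's rho on log2 (FPKM + 1) (permutation test, 100000 resamples). The highest r was that of ESR1 with NR3C1 (r = 0.574, permutation p = 0.0899; rho = 0.479, permutation p = 0.166), with adjusted p of 0.613 and 0.634, and r fell to 0.318 without control replicate 5 and rpFSH replicate 1. The highest rho was that of NR3C1 with GPER1 (rho = 0.552, permutation p = 0.105, adjusted p = 0.634; r = 0.418, permutation p = 0.228, adjusted p = 0.613), whose r was 0.701 without rpFSH replicates 1 and 5. For NR3C1 with NR3C2, r was 0.474 over all gilts (rho = 0.455; adjusted p = 0.613 and 0.634 by permutation) and −0.225 without rpFSH replicates 1 and 5, the gilts farthest from the NR3C1 median. When control replicates 2 and 5 were left out instead, r rose to 0.981 over the other 8 gilts (rho = 0.976; exact permutation p adjusted over 10 pairs = 0.000496 and 0.00397), and it was 0.925 over the 6 that remained without rpFSH replicates 1 and 5 as well. Control replicates 2 and 5 were the gilts whose log2 ratio of NR3C1 to NR3C2 departed (−0.82 and 0.89, against 0.17 to 0.40 elsewhere). A high r over the rest follows in part from leaving these gilts out, so its p is no test of the relation. Over all 10 gilts the pair did not pass.

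Among 50 pairs of a receptor and a marker list, 1 passed adjustment for Pearson's r, that of ESR2 with the oocyte markers (zona pellucida genes, GDF9, BMP15 and other germ cell genes). The oocyte markers summed to 22.3, 5.28, 22.1, 15.2 and 7.43 FPKM in control replicates 1 to 5, and 12.1, 18.5, 19.9, 11.2 and 18.5 FPKM in rpFSH replicates 1 to 5. Control replicates 2 and 5 were the lowest for this sum, as they were for ESR2. Of the single genes, ZP3, ZP4, BMP15 and NOBOX were lowest in both, and the others did not follow in full. DDX4 was highest of all gilts in control replicate 2 (1.02 FPKM). GDF9 in control replicate 5 (3.35 FPKM) lay above rpFSH replicates 3 and 4 (3.20 and 3.06), and ZP2 there (0.655) above rpFSH replicate 1 (0.647). Pearson's r was 0.940 (permutation p = 0.00027, adjusted p = 0.0135) and Spearman's rho 0.879 (permutation p = 0.0017, adjusted p = 0.085), and r was 0.728 without control replicates 2 and 5. The log2 sum of markers of granulosa, the cells that ESR2 is best known from, gave r = 0.457 (adjusted p = 0.507 by permutation). It was 0.688 without rpFSH replicates 1 and 3, the gilts farthest from the median of that sum. NR5A2 gave 102 of 192 FPKM in rpFSH replicate 1 and 23.9 of 32.1 in control replicate 2. FSHR, CYP19A1, AMH, INHA, INHBA and INHBB were lowest in control replicate 2, as ESR2 was, while NR5A2 and GATM were not. Whether the oocyte and granulosa values of r differ was not tested.

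The other pairs did not pass. For ESR1 the highest r was with smooth muscle markers, 0.719 (permutation p = 0.0308, adjusted p = 0.377; rho = 0.43), which became 0.445 without control replicates 2 and 5. ESR2 had an r of −0.764 with surface epithelium and −0.752 with oviduct-type epithelium (adjusted p = 0.347 for each by permutation), and these became −0.0391 and 0.369 without the same gilts. For NR3C1, NR3C2 and GPER1 the values of r ran from −0.627 to 0.409 over the 10 lists.

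**Figure D4:**
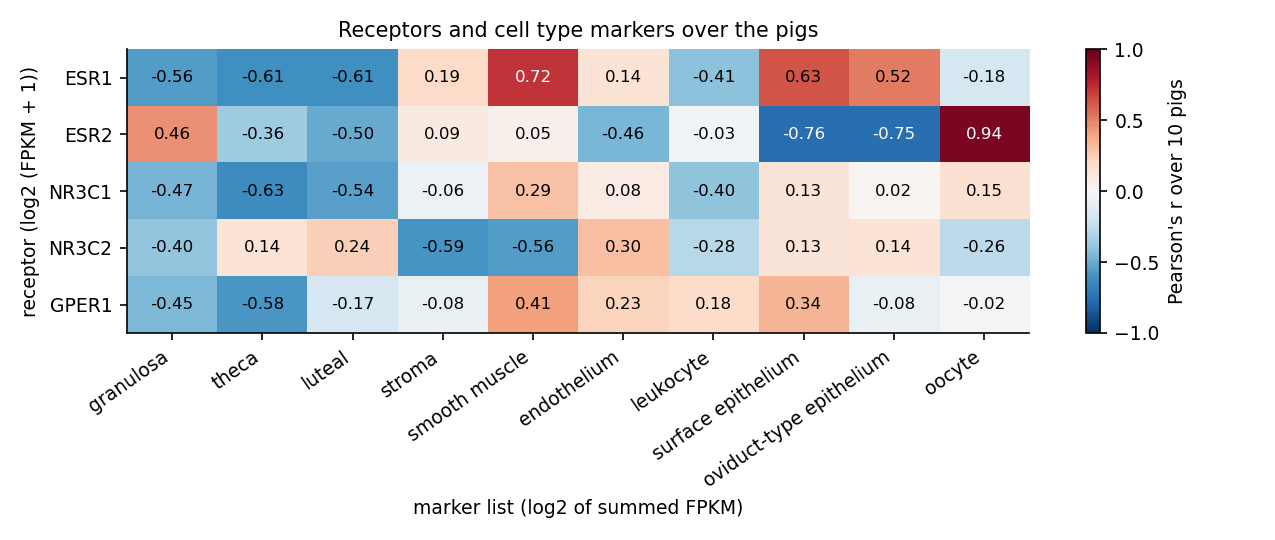
Cells give Pearson's r over 10 gilts between log2 (FPKM + 1) of a receptor (rows) and the log2 summed FPKM of a marker list (columns), from −1 (blue) to 1 (red). ESR2 with oocyte markers (0.940) is the pair that passed adjustment over 50 pairs, and ESR1 with smooth muscle (0.719) is the next highest positive value.

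**Figure D5:**
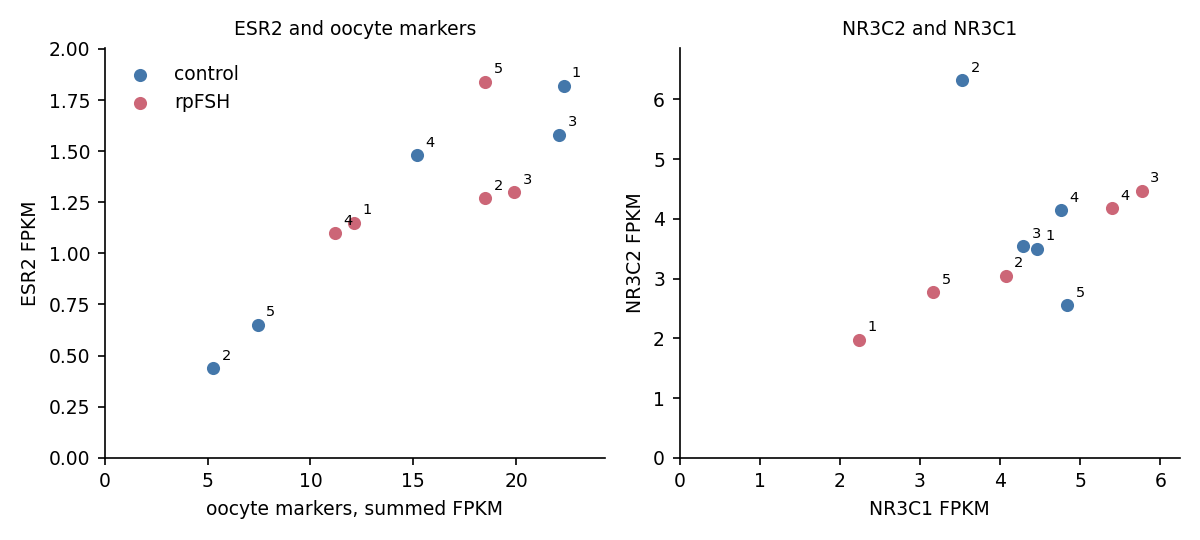
Points are gilts, numbered by replicate, controls in blue and rpFSH gilts in red, with ESR2 FPKM against the summed FPKM of oocyte markers on the left and NR3C2 FPKM against NR3C1 FPKM on the right. On the left control replicates 2 and 5 lie lowest on both axes, and on the right they lie apart from the line of the other 8 gilts (r = 0.981 on the log2 scale).

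The protein-coding loci most like each receptor over the gilts, among 11315 with a mean of at least 1 FPKM, are given as a description, since the best of so many reach a high r. For ESR1 they were SYNM, an intermediate filament protein of muscle (r = 0.924), the locus of FBXO43 and RGS22 (0.911) and SHROOM3 (0.908), and all 3 were highest in control replicate 5 and lowest in rpFSH replicate 1. For ESR2 they were ZNF518B (0.958), PRRC2C (0.955) and TOMM34 (0.953), all 3 lowest in control replicate 2. NR3C1 was matched by ZNF438 (0.929), APLF (0.927) and ENSSSCG00000004024 (0.926), and NR3C2 by SLU7, a splicing factor (0.968), TRIM23 (0.915) and CCPG1 (0.894), and all 6 were lowest in rpFSH replicate 1. GPER1 was matched less closely, by the locus of ZNF609 and TRIP4 (0.863), VAT1 (0.846) and ENSSSCG00000035585 (0.843). ESR1, NR3C1 and NR3C2 were themselves lowest in rpFSH replicate 1.

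Unannotated loci overlapped 3 of the receptor loci: 12 overlapped the merged ESR1 and CCDC170 locus (11 of them ESR1 and 1 CCDC170), 3 overlapped NR3C1 and 5 overlapped NR3C2, of which 18 were tested, while none overlapped the assembled locus of ESR2 or GPER1. MSTRG.2397 (193906234 to 193911275, no strand, 368 to 970 counts) began before the RefSeq end of ESR2 at 193907330. Whether its reads belong to ESR2 was not tested. With edgeR, 0 of the 18 had an adjusted p under 0.05 and 0 an unadjusted P under 0.05, beside backgrounds of 0% and 6.68% of 19909 unannotated loci, and limma gave 1 at an unadjusted P under 0.05, beside a background of 4.75%. Those of highest mean level in ESR1 were MSTRG.276 (3.07 FPKM), MSTRG.278 (2.62) and MSTRG.272 (2.47), all opposite to the gene. In NR3C2 they were MSTRG.33063 (2.46 FPKM), MSTRG.33061 (2.39) and MSTRG.33064 (1.91), opposite as well.

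In NR3C1 the loci were MSTRG.19845 (mean 2.62 FPKM) and MSTRG.19846 (2.04) on the opposite strand and MSTRG.19844 (2.08) on its own strand. MSTRG.19844 is the locus that limma gave (adjusted p = 0.976). It had 2.48, 2.24, 2.69, 3.34 and 2.61 FPKM in control replicates 1 to 5, and 1.81, 1.91, 0.119, 0.785 and 2.82 FPKM in rpFSH replicates 1 to 5. Of the rpFSH gilts, 4 lay below every control and rpFSH replicate 5 lay among them, and edgeR gave a log2 fold change of −0.82 ± 0.60 (SE; edgeR adjusted p = 0.88). In rpFSH replicates 3 and 4, where this locus was lowest, NR3C1 itself was highest.

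The summed CPM of the overlapping loci followed the receptor over the gilts for NR3C2 (r = 0.871, adjusted p = 0.00462; rho = 0.855, adjusted p = 0.00981) and the merged ESR1 locus (r = 0.779, adjusted p = 0.0129; rho = 0.770, adjusted p = 0.019), by permutation tests over 3 relations. Without the 2 gilts farthest from the median, r was 0.888 and 0.775. For NR3C1 it was 0.439 (permutation p = 0.205; rho = 0.418) and −0.155 without 2 gilts. Since strand use in the counting is unknown, shared reads cannot be told apart from parallel transcript levels.

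The other genes of the receptor pathways were read from 9 lists with 144 genes, of which 136 had a coding locus and 129 were tested. With edgeR 7 of them, or 5.43%, had an unadjusted P under 0.05 (3 higher and 4 lower in the rpFSH group), beside the background of 4.73%, and 0 had an adjusted p under 0.05. Of the 4 lower genes, CYP1A1 and TFF3 passed the filter on low values only through controls (1 and 2 of 5 gilts at 0.1 FPKM or more, and 0 of 5 rpFSH gilts), so the count is no support for a direction, and it was 3 among genes with a mean of at least 1 FPKM. DESeq2 gave 7 at an unadjusted P under 0.05 (background 6.04%) and 2, MYB and TFF3, at an adjusted p under 0.05 (background 0.567%). limma gave 3 (background 3.03%) and 0. The median log2 fold change was 0.04, beside −0.01 over all tested loci, so the lists as a whole lay near the background.

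Genes that hold or assist the receptors gave no member at an unadjusted P under 0.05: 0 of 14 chaperones, 0 of 20 coactivators, 0 of 12 corepressors and 0 of 3 receptor paralogs. The background for this and each later list was 4.73% of all tested loci. HSPA8, a constitutive heat shock protein and the highest chaperone, had 81.5 ± 19.6 FPKM among controls and 67.2 ± 33.7 among rpFSH gilts (SD, n = 5 each; edgeR adjusted p = 1.00). DDX17, an RNA helicase that also serves as a coactivator, had 64.6 ± 9.63 and 59.7 ± 6.26 FPKM, and SIN3A, a corepressor scaffold, 12.6 ± 1.10 and 12.8 ± 1.64 FPKM. The estrogen-related receptors, orphan relatives that do not bind estrogen, were low, with means over all gilts of 0.779 FPKM for ESRRA, 0.244 for ESRRB and 0.174 for ESRRG. Their log2 fold changes were −0.44, −0.05 and 0.21 (edgeR adjusted p = 1.00 for each).

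Ligand metabolism had 1 of 14 genes at an unadjusted P under 0.05. This was CYP1A1, an estrogen-hydroxylating cytochrome P450, at 2.20 FPKM in control replicate 5 and between 0.0001, the value deposited for a count of 0, and 0.0562 FPKM in the other 9 gilts (edgeR adjusted p = 0.98). CYP1B1, of the same family, was the highest gene of the list, with 24.2 ± 18.6 FPKM among controls and 29.2 ± 18.4 among rpFSH gilts (SD, n = 5 each).

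HSD11B1, which regenerates active glucocorticoid, had 1.88, 1.39, 1.53, 1.06 and 2.69 FPKM in control replicates 1 to 5, and 1.43, 1.99, 2.23, 1.76 and 5.70 FPKM in rpFSH replicates 1 to 5. rpFSH replicate 5 lay above all other gilts, and the log2 fold change was 0.69 ± 0.39 (SE; edgeR adjusted p = 1.00). HSD11B2, which inactivates glucocorticoid and so protects NR3C2, had 0.540, 4.56, 0.874, 0.538 and 0.681 FPKM in control replicates 1 to 5, and 29.2, 0.324, 0.257, 1.35 and 0.713 FPKM in rpFSH replicates 1 to 5. The 3 highest gilts for HSD11B2 were rpFSH replicate 1, control replicate 2 and rpFSH replicate 4, which were also the 3 highest for luteal markers (1422, 2724 and 349 summed FPKM). Its log2 fold change was 2.17 ± 1.33 (SE; edgeR adjusted p = 1.00), but −1.05 without rpFSH replicate 1, since the other 4 rpFSH gilts averaged 0.661 FPKM against a control mean of 1.44. Without control replicates 2 and 5 it was 3.32. The log2 ratio of HSD11B1 to HSD11B2 ran from −4.26 in rpFSH replicate 1 to 2.83 in rpFSH replicate 5, and the group means differed by 0.10 (exact p = 0.944, adjusted p = 0.944).

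Estrogen-responsive genes had 3 of 22 at an unadjusted P under 0.05, with 1 higher and 2 lower, beside backgrounds of 1.52% and 3.21%. Both lower genes, MYB and TFF3, were highest in control replicates 2 and 5, so the count is no support for a difference of the list. OXTR, the oxytocin receptor, was higher in the rpFSH group, with 0.846, 0.988, 1.24, 0.249 and 0.708 FPKM in control replicates 1 to 5, and 3.23, 0.540, 1.66, 3.16 and 6.29 FPKM in rpFSH replicates 1 to 5. Of the rpFSH gilts, 4 lay above every control and rpFSH replicate 2 lay among them. The log2 fold change was 1.93 ± 0.59 (SE; edgeR adjusted p = 0.98) and 1.98 without control replicates 2 and 5, both at an unadjusted P under 0.05.

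MYB, a transcription factor, had 0.374, 1.44, 0.160, 0.106 and 2.49 FPKM in control replicates 1 to 5 and 0.0303 to 0.168 FPKM in the rpFSH group, with control replicates 5 and 2 the highest (log2 fold change −3.03 ± 0.86, SE; edgeR adjusted p = 0.98). Without these 2 controls it was −0.96, no longer at an unadjusted P under 0.05. TFF3, a secreted mucosal peptide, had 3.82 FPKM in control replicate 2 and 2.89 in control replicate 5 and a count of 0 in the other 8 gilts (edgeR adjusted p = 0.98). MYB, TFF3, CYP1A1 and SCNN1A were thus high in control replicate 5, and all but CYP1A1 in control replicate 2 as well, the gilts with the highest oviduct-type marker sums. XBP1, a factor of the unfolded protein response and the highest gene of the estrogen-responsive list, had 21.4 ± 4.18 and 22.6 ± 5.40 FPKM in the control and rpFSH groups (SD, n = 5 each).

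Glucocorticoid-responsive genes had 1 of 21 at an unadjusted P under 0.05, and 15 of the 21 had a positive log2 fold change, with a median of 0.23, beside 48.3% positive over all tested loci. Of the other lists, the corepressors had 10 of 12 positive, with a median of 0.07, and neither tally was tested. CEBPD, a transcription factor of the acute phase, had 4.41, 4.12, 4.63, 5.36 and 3.22 FPKM in control replicates 1 to 5, and 5.77, 2.48, 6.75, 9.38 and 14.2 FPKM in rpFSH replicates 1 to 5. Of the rpFSH gilts, 4 lay above every control and rpFSH replicate 2 lay below them all (log2 fold change 0.88 ± 0.37, SE; edgeR adjusted p = 1.00), and P stayed under 0.05 in 3 of 10 fits with a gilt left out. ANGPTL4, a lipoprotein lipase inhibitor and the highest gene of the list, was at 70.0 FPKM in rpFSH replicate 1, 49.6 in control replicate 2 and 17.8 in rpFSH replicate 4, the gilts highest in luteal markers, and at 4.06 to 9.71 FPKM in the others.

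Mineralocorticoid-responsive genes had 1 of 9 at an unadjusted P under 0.05, SCNN1A, a subunit of the epithelial sodium channel. It had 0.188, 1.63, 0.0896, 0.125 and 1.13 FPKM in control replicates 1 to 5 and 0.101 to 0.265 FPKM in the rpFSH group (log2 fold change −1.88 ± 0.79, SE; edgeR adjusted p = 1.00). Without control replicates 2 and 5 its log2 fold change turned to 0.33.

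GPER1 signalling genes had 1 of 18 at an unadjusted P under 0.05, ADCY9, an adenylate cyclase that makes cyclic AMP. It had 2.37, 2.81, 2.83, 2.61 and 2.71 FPKM in control replicates 1 to 5, and 3.01, 2.83, 3.92, 3.34 and 3.47 FPKM in rpFSH replicates 1 to 5, so 4 rpFSH gilts lay above every control and rpFSH replicate 2 was level with the highest. The log2 fold change was small, 0.38 ± 0.13 (SE; edgeR adjusted p = 0.98), and P stayed under 0.05 in all 10 fits with a gilt left out and without control replicates 2 and 5 (log2 fold change 0.42). The tally was also 10 for OXTR, MYB and TFF3, and it was 9 for CYP1A1 and 4 for SCNN1A. These fits share most of their gilts with the fit that picked the genes, so the tally is no independent support. MMP2, a matrix metalloproteinase and the highest gene of the list, had 73.9 ± 29.5 and 107 ± 41.4 FPKM in the control and rpFSH groups (SD, n = 5 each; edgeR adjusted p = 1.00).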

How the data were processed

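Total RNA of 1 ovary sample per gilt was sequenced (5 controls, 5 rpFSH). Per the methods, the authors trimmed reads with Cutadapt, aligned them with HISAT2 and Bowtie2, assembled transcripts with StringTie and computed levels with Ballgown. The submitters' processing notes name Sscrofa11.1, HISAT2 2.0, StringTie 1.3.0 and Bowtie 0.12.2. The labels name poly(A) selection, the methods ribosomal RNA removal. The deposited FPKM values and deposited read counts per locus were used, and how the counts were made is not given in the sources used here. The authors' columns of fold changes and p-values were not used.

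Counts of 15170 protein-coding loci, those averaging 0.1 FPKM or more, were fitted in edgeR 4.0.16 (TMM, quasi-likelihood, Benjamini-Hochberg adjustment). Alternatives were DESeq2 1.42.0, limma 3.58.1 on log2 (FPKM + 1), other scalings and filters, a replicate block, and gilts left out. A gene with several loci was taken at the largest summed count. Scripts were tested on simulated data. Named genes were the receptors, in each list up to 4 genes with an unadjusted P under 0.05 and the highest gene, HSD11B1, HSD11B2, the estrogen-related receptors, 3 most similar loci and up to 3 overlapping loci per receptor. A gene named by this rule is not reported here. Receptors, lists and the fits without control replicates 2 and 5 (set apart by cilia genes) were chosen with earlier results of these data known. The deviations of same-numbered gilts correlated at −0.294 to −0.026, so no pairing by number was seen, though such values cannot exclude one. Counting errors cover counting only.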

Additional observations from a re-analysis of the deposited data

Results flagged for a closer look

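In groups of 5 gilts, 9 of 52 groups of values held a gilt whose gap to the nearest other exceeded 0.71 of the group's range (Dixon's 95% limit). This limit passes about 1 in 20 groups where values are independent and normally distributed. The groups here are not independent, normality was not tested, and CYP1A1 had been named for its unadjusted P. The count therefore cannot be set against that rate. Among the receptors the flagged values were ESR1 in control replicate 5, at 6.15 FPKM against 2.52 to 2.67 in the other controls, and ESR2 in rpFSH replicate 5, at 1.84 FPKM against 1.1 to 1.3. Luteal markers summed to 2724 FPKM in control replicate 2 (others 17.5 to 62.5) and 1422 in rpFSH replicate 1 (others 32.2 to 349). Theca markers, which share 3 genes with the luteal list, summed to 2299 FPKM in control replicate 2 (others 52.8 to 266) and 1268 in rpFSH replicate 1 (others 13.8 to 347). Most of these sums came from the shared genes CYP11A1 (1758 and 787 FPKM) and STAR (532 and 448). The genes not shared were low there, INSL3 at 0.351 and 17.1 FPKM and CYP17A1 at 5.46 and 7.55. INSL3 was lowest of all gilts in control replicate 2, so the sums do not mark theca apart from luteal cells. Smooth muscle markers summed to 2194 FPKM in control replicate 5 (others 66.2 to 301). CYP1A1 was at 2.20 FPKM in control replicate 5 (others 0.0217 to 0.0562) and at 0.044 in rpFSH replicate 2 (others 0.0001 to 0.0119).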

How the results depend on the processing

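No receptor reached an unadjusted P under 0.05 under any alternative run. Without control replicates 2 and 5 the log2 fold change was 0.09 for ESR1, −0.21 for ESR2 and 0.33 for SCNN1A, the log2 ratio differences were 0.23 (ESR1 to ESR2), 0.14 (ESR1 to NR3C1) and −0.29 (HSD11B1 to HSD11B2), and 1 receptor pair passed in place of 0. That pair was NR3C1 with NR3C2, whose ratio had departed in the gilts left out, so the pass is no support. A pseudocount of 1 brought the HSD11B1 to HSD11B2 difference to −0.12. With each gilt left out in turn the log2 fold change ran from −0.39 to 0.08 for ESR1 (0.08 without control replicate 5), 0.02 to 0.42 for ESR2, −0.17 to 0.16 for NR3C1, −0.36 to 0.02 for NR3C2 and 0.22 to 0.47 for GPER1. From the loci overlapping ESR1 it ran from −0.16 to 0.21. There it was 0.03, 0.21, 0.11 and 0.06 without control replicates 4 and 5 and rpFSH replicates 1 and 4. The ratio differences ran from −0.82 to −0.18 (ESR1 to ESR2), −0.13 to 0.30 (NR3C1 to NR3C2), −0.25 to 0.07 (ESR1 to NR3C1) and −0.48 to 1.36 (HSD11B1 to HSD11B2). List genes at an unadjusted P under 0.05 numbered 5 to 10, and overlapping loci 0 to 1. Against 7 list genes in the fit reported, there were 3 with limma at either pseudocount (1 or 0.1), 3 at a mean of at least 1 FPKM and 2 with the replicate block, and limma gave 1 overlapping locus in place of 0. DESeq2 passed 2 list genes at an adjusted p under 0.05, MYB (0.0308) and TFF3 (2.57e-12). TFF3 had counts only in control replicates 2 and 5 and passed the filter on low values through them alone, so its p is no support. MYB was also highest in these gilts. The causes were not tested. No pairing by replicate number was seen, and with the replicate block the receptor values were −0.23 (ESR1), 0.38 (ESR2), −0.08 (NR3C1), −0.21 (NR3C2) and 0.37 (GPER1). The measure of ESR1 from overlapping loci, its repeats with a gilt left out, and the repeats for overlapping loci were chosen after seeing the data.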

Other observations

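PGR, the progesterone receptor and a classical ESR1 target, was chosen after its values were seen. It had 2.77, 3.17, 4.07, 3.20 and 21.2 FPKM in control replicates 1 to 5, and 6.39, 4.95, 4.11, 4.09 and 5.04 FPKM in rpFSH replicates 1 to 5. Control replicate 5 was highest for PGR and for the merged locus of ESR1 and CCDC170. It was also highest for smooth muscle and oviduct-type marker sums (2194 and 123 FPKM). Only with that gilt set aside did every rpFSH gilt lie above the other 4 controls, the nearest pair being 4.09 and 4.07 FPKM. How many other loci separate in this way was not counted, and a link between PGR and ESR1 was not tested. The log2 fold change of PGR was −0.38 (edgeR adjusted p = 1.00) over all gilts and 0.62 without control replicates 2 and 5.

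Near GPER1, MSTRG.19994 had 2.85 FPKM in rpFSH replicate 2 and a count of 0 in the other 9 gilts. A locus opposite to CCDC170, MSTRG.282, was at 1.84 FPKM in rpFSH replicate 5 and at most 0.357 FPKM in the others.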
